A study of Mus musculus with 18 samples.

Results

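Hapln1, Reln, Kcnc4, Nudt11, Wt1 and Redrum are 6 of the 41079 genes in the count tables of this series, and they were picked because the wild-type (WT) DMSO libraries held almost none of their fragments (at most 2 per library) while the AE9a DMSO libraries held 157 to 2187. The series measured RNA in mouse bone marrow cells labelled as c-kit+, of genotype WT or AE9a, each treated with DMSO, C16 or RE, in 3 libraries per group and 18 in all. AE9a is a splice form of AML1-ETO, the leukaemia fusion of the transcription factor RUNX1 with RUNX1T1. The study set out to inhibit WDR5 and MLL1, and neither the target of C16 or RE nor any dose or time is given. What drives AE9a, and whether the libraries of a group stem from different animals, is not stated either. The p-values below therefore measure the spread between these libraries only. The 2 genotypes were deposited as separate tables, so genotype and any batch that goes with a table cannot be told apart.

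The AML1-ETO fusion keeps the DNA-binding domain of RUNX1, which reads the word TGTGGT, and replaces the activating part of RUNX1 by the ETO protein. It blocks maturation of marrow progenitors, and its AE9a form gives rise to leukaemia in mice. MLL1 is a histone methyltransferase and WDR5 a shared subunit of the MLL complexes, which are linked to active transcription. The 6 genes are best known outside the myeloid marrow. Hapln1 encodes a link protein that ties hyaluronan to proteoglycans such as versican in the extracellular matrix. Reln encodes reelin, a large secreted glycoprotein that guides neurons to their layers. Kcnc4 encodes a voltage-gated potassium channel. Nudt11 encodes a phosphatase of inositol pyrophosphates. Wt1 encodes a zinc finger transcription factor of the kidney and gonad that is also found in many acute leukaemias. Redrum is a long noncoding RNA named for its part in red cell development.

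Start-site sequences of 300 bases (250 before and 50 after the start) were taken from RefSeq on GRCm38.p6. They were examined for 4 of the 6 genes: Hapln1, Kcnc4, Reln and Nudt11. No sequence of Wt1 or Redrum was examined. The sequences of Hapln1 and Kcnc4 are shown because each holds the RUNX word TGTGGT or its reverse complement ACCACA. That of Reln is shown because it holds neither. All are written 5′ to 3′ on the gene's own strand, with the RUNX word in capitals.
Hapln1, chr13:89540386-89540685, plus strand: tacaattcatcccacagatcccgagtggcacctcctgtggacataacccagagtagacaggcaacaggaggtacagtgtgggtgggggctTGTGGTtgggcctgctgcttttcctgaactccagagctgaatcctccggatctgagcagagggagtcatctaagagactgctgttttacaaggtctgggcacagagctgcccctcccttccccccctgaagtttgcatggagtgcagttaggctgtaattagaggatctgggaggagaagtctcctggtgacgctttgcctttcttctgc
Kcnc4, chr3:107458849-107459148, minus strand: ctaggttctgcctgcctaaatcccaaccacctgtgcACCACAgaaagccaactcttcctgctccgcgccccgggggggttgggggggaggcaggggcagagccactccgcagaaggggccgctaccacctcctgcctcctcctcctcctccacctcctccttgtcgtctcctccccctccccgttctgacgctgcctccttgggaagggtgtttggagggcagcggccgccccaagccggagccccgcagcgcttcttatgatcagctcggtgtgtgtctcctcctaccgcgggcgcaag
Reln, chr5:22344656-22344955, minus strand: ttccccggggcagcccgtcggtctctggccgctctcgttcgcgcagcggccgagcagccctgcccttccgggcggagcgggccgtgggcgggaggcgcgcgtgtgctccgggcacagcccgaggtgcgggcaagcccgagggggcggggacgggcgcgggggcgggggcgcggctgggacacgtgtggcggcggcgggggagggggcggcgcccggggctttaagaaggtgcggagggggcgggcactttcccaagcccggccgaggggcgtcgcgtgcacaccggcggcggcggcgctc
The word lies 160 bases before the start in Hapln1 and 214 bases before it in Kcnc4. It occurs on either strand in 16.8% of the 32851 start-site sequences of this length. Neither AGATAA (the GATA word) nor CAGCTG (an E-box), searched on both strands, was found in any of the 4 windows, and these occur in 11.2% and 16.3% of all such sequences. No motif overlapped another. The 4 windows differ widely in composition. Reln has 80.7% G or C with 47 CG pairs and Nudt11 has 81.0% with 57, whereas Kcnc4 has 66.7% with 17 and Hapln1 54.3% with 3, against medians of 52.7% and 7 over all windows.

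On GRCm39, as the tables give them, Hapln1 lies on chromosome 13 from 89688654 to 89759951 on the plus strand, and Reln on chromosome 5 from 22089452 to 22549703 on the minus strand. Kcnc4 lies on chromosome 3 from 107345614 to 107367617 on the minus strand, and Nudt11 on chromosome X from 5959488 to 5966805 on the plus strand. Wt1 lies on chromosome 2 from 104956874 to 105003959 and Redrum on chromosome 18 from 54555367 to 54586366, both on the plus strand. The 6 genes thus sit on 6 different chromosomes. Fragments were counted over exons without regard to strand. Some libraries stood apart from the others of their group. AE9a C16 replicate 3 was far lower than replicates 1 and 2 for all 6 genes, and the WT libraries numbered 2 differed from WT replicates 1 and 3 in cell type markers, with summed endothelial markers of 8.26 to 11.8 CPM (the count scaled to the library total) against 30.9 to 53.0 CPM and summed progenitor markers of 4034.5 to 6470.3 CPM against 1580.7 to 2522.1 CPM. For the 6 genes, fits with and without these libraries were compared. Values of other genes, markers and gene lists are given with all libraries only.

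Under DMSO, the condition that chose them, the 6 genes ranged from 9.89 to 66.9 CPM in AE9a cells. These values are a description, since the choice used them. Hapln1, the link protein gene, had 1217, 2187 and 1142 fragments in AE9a DMSO replicates 1 to 3, or 66.9 ± 11.8 CPM (SD, n = 3), and 0, 0 and 2 fragments in the WT DMSO libraries. The ratio of the genotypes was 1849.9, with a 95% exact interval of 512 to 15280.1 that covers counting error only. The other genes had no fragment in any WT DMSO library, which allows up to 0.0555 CPM over that group (3 fragments).

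Reln, the secreted reelin gene, had 199, 307 and 340 fragments in AE9a DMSO cells (12.9 ± 3.84 CPM, SD, n = 3), at least 230-fold above the WT limit. Kcnc4, the potassium channel gene, had 444, 781 and 328 (22.7 ± 6 CPM, SD, n = 3), at least 421-fold above it. Nudt11 had 208, 278 and 173 (9.89 ± 0.956 CPM, SD, n = 3), at least 179-fold above it. All 3 genes were present in every AE9a DMSO library, and Nudt11 varied least between them. Wt1 had 157, 302 and 220 fragments (10.1 ± 1.80 CPM, SD, n = 3), at least 184-fold above the WT limit. Redrum had 205, 421 and 333 (14.3 ± 3.39 CPM, SD, n = 3), at least 260-fold above it. In bulk RNA, a few cells with much of a transcript and many cells with little of it cannot be told apart.

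Divided by exon length, the order of levels in AE9a DMSO cells changed. On the scale of fragments divided by exon length and library total (FPKM), Hapln1 stood first at 13 ± 2.30 and Redrum second at 6.42 ± 1.52 (SD, n = 3). Wt1 followed at 3.27 ± 0.584, Kcnc4 at 2.70 ± 0.713, Nudt11 at 1.53 ± 0.148 and Reln at 1.10 ± 0.328 FPKM (SD, n = 3). The libraries of Wt1 and Kcnc4 overlapped on this scale, as did those of Nudt11 and Reln, so neither pair is ordered beyond its spread. The other neighbours in this order did not overlap.

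**Figure D1:**
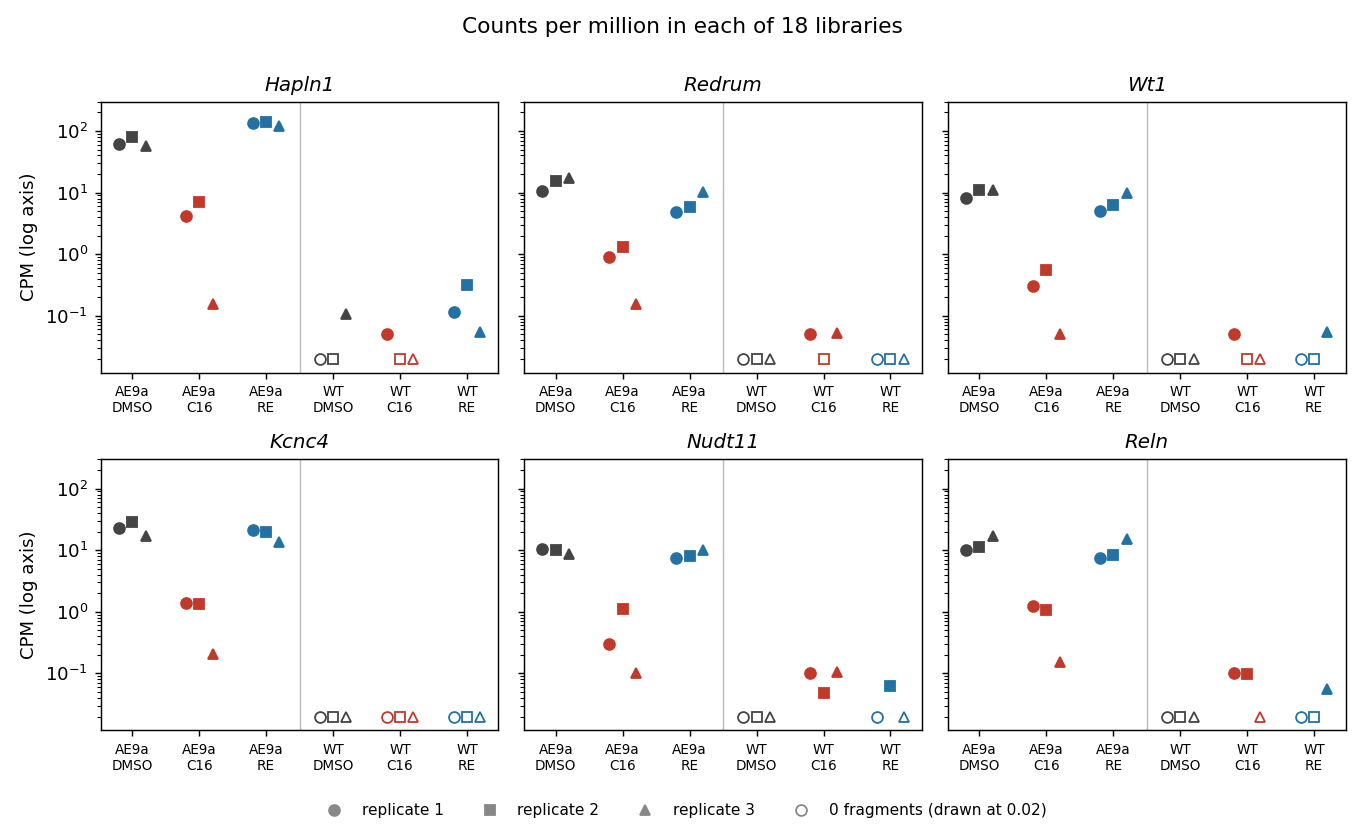
Each panel plots 1 gene on a log axis of CPM, with 1 marker per library, grouped by genotype and treatment. Open markers are libraries with 0 fragments, drawn at 0.02 CPM; AE9a DMSO and RE libraries lie from 4.83 to 138 CPM, AE9a C16 libraries lie lower in each panel, and WT libraries do not pass 0.311 CPM.

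Over all 9 WT libraries, only Kcnc4 had no fragment at all. Wt1 and Redrum each had 2 fragments in total, Reln 5, Nudt11 6 and Hapln1 11. Found only in AE9a cells is thus exact for 1 of the 6 genes. The other 5 were traces in WT cells, at most 5 fragments in a library (Hapln1, WT RE replicate 2), or 0.311 CPM. WT fragments of Nudt11 came mainly under C16, with 2, 1 and 2 in replicates 1 to 3 against 0 in each DMSO library. Those of Reln were 2, 2 and 0 under WT C16 and 0, 0 and 1 under WT RE. Summed over a group, Nudt11 with 5 and Reln with 4 fragments under WT C16, and Hapln1 with 8 (2, 5 and 1) under WT RE, lay above the 3 fragments that a count of 0 allows, and the other WT groups lay at or under it. Changes of WT cells with treatment were not tested at these counts, in WT libraries of 16053727 to 20500907 fragments.

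The choice of the genes set no exact limits. Read as at most 10 WT DMSO fragments and at least 300 AE9a DMSO fragments over 3 libraries each, they fit 60 genes, the 6 among them. With the genotypes exchanged, 0 genes fit. Just inside the AE9a limit lay Gm31288 with 304 fragments and Fgf10 with 317, and just outside it Gm52919 with 292 and Gm20756 with 291. Of the 60 genes, 16 had no WT DMSO fragment, and Kcnc4, Redrum, Reln, Wt1 and Nudt11 were the 5 highest of these, followed by Hoxc4 with 563 fragments. Among all 60, Hapln1 ranked 2 behind Mrgprb2, a mast cell receptor gene with 6716 AE9a DMSO fragments, and Nudt11 ranked lowest of the 6 genes at 27.

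Libraries labelled c-kit+ held the Kit transcript in both genotypes, but at different levels. Under DMSO, Kit reached 1031.0 ± 162 CPM in AE9a and 108 ± 40.8 CPM in WT cells (SD, n = 3). Runx1t1, part of the fusion, reached 40.0 ± 6.26 CPM in AE9a and 0.11 ± 0.0504 CPM in WT cells under DMSO (SD, n = 3). Mast cell and basophil markers (13 genes) summed to between 12709.5 and 16727.2 CPM in AE9a DMSO libraries and to between 4391.7 and 6316.2 CPM in WT DMSO libraries. Their part in the genotype difference was not tested. Markers of other tissues in which Reln and Wt1 are known were summed in the same way. The 9 neuron markers summed to 0.662 to 1.02 CPM in AE9a DMSO libraries, with 6 of them at 0 (among them Rbfox3, Snap25 and Syt1), and to 1.24 to 5.94 CPM in WT DMSO libraries. The 7 podocyte and mesothelium markers summed to 83.1 to 93.2 CPM in AE9a DMSO and 54.2 to 170 CPM in WT DMSO libraries, with Msln and Upk3b at 0 in the former. Most of the AE9a DMSO sum came from 1 of these markers, Podxl, at 85.4 ± 5.14 CPM (SD, n = 3). Marrow stroma markers (9 genes) summed to 8.71 to 11.7 CPM in AE9a DMSO and 22.4 to 37.7 CPM in WT DMSO libraries, with Dcn and Lum at 0 in the former. Endothelial markers (6 genes) summed to 16.1 to 17.0 CPM against 8.26 to 39.8 CPM, with Cldn5 at 0 in the former.

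C16 lowered all 6 genes in AE9a cells to between 2.98% and 6.37% of their DMSO mean. Hapln1 fell from 66.9 ± 11.8 to 3.82 ± 3.49 CPM and Kcnc4 from 22.7 ± 6 to 0.982 ± 0.673 CPM (SD, n = 3 each). Wt1 fell furthest, from 10.1 to 0.301 CPM, and Reln least, from 12.9 to 0.823 CPM. For 6 of 6 genes every C16 library lay below every DMSO library, as for 37.4% of all tested genes. By edgeR's quasi-likelihood test with Benjamini-Hochberg adjustment over 14704 genes, 6 of 6 were lower under C16, where 33.2% of all tested genes were lower. The 6 passed the filter on low counts through the groups in which they are high, and the AE9a DMSO libraries took part in choosing them, so that their high start was given.

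The C16 libraries of Hapln1 held 84, 180 and 3 fragments, a log2 change of -4.03 ± 0.51 (SE, adjusted p = 0.0001, edgeR). Those of Reln held 25, 27 and 3, a change of -3.89 ± 0.50 (adjusted p = 0.0001). Those of Kcnc4 held 28, 34 and 4, a change of -4.45 ± 0.41 (adjusted p = 1.3e-05). Replicate 3 was thus the lowest of the C16 libraries for the matrix, secreted and channel genes alike. Nudt11 had 6, 28 and 2 fragments under C16, with a log2 change of -4.14 ± 0.43 (adjusted p = 2.7e-05, edgeR). Wt1 had 6, 14 and 1, with a change of -4.92 ± 0.47 (adjusted p = 1.6e-05). Redrum had 18, 33 and 3, with a change of -4.08 ± 0.48 (adjusted p = 6.1e-05). For these 3 genes too replicate 3 was lowest, and the median change of the 6 genes was -4.11, against 0.00 over all tested genes.

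AE9a C16 replicate 3 held between 0.23% and 1.19% of the DMSO mean of each gene, whereas replicates 1 and 2 held between 2.96% and 11.2%. Without that library all 6 genes remained lower, by 11.2-fold (Reln) to 23.7-fold (Wt1) in place of 15.7-fold to 33.6-fold. Runx1t1 behaved likewise across libraries, with 675, 1274 and 760 fragments under DMSO and 47, 103 and 4 under C16, a log2 change of -4.07 ± 0.46 (SE, adjusted p = 4.4e-05, edgeR). Its part in the fall of the 6 genes was not tested. Kit fell by 1.92 on the log2 scale, from 1031.0 to 265 CPM. Of the 13 mast cell and basophil markers 11 fell, and their sum went to between 1133.7 and 3271.0 CPM, while 5 of 7 progenitor markers rose and 1 fell. Over all tested genes 33.2% fell and 33.1% rose. Of 26 erythroid genes 21 fell and 1 rose, Tfrc, which takes up transferrin and stood at 755 CPM after C16 and 373 after DMSO. The part of these shifts in the fall of the 6 genes was not tested. Of the 54 other genes with the same reading of the rule, 54 were lower under C16, and over all 60 the log2 change ran from -5.99 to -1.93 with a median of -4.08. That reading required at least 300 fragments in the same AE9a DMSO libraries. The high start of these genes was thus given too, and nothing is read from this count.

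**Figure D2:**
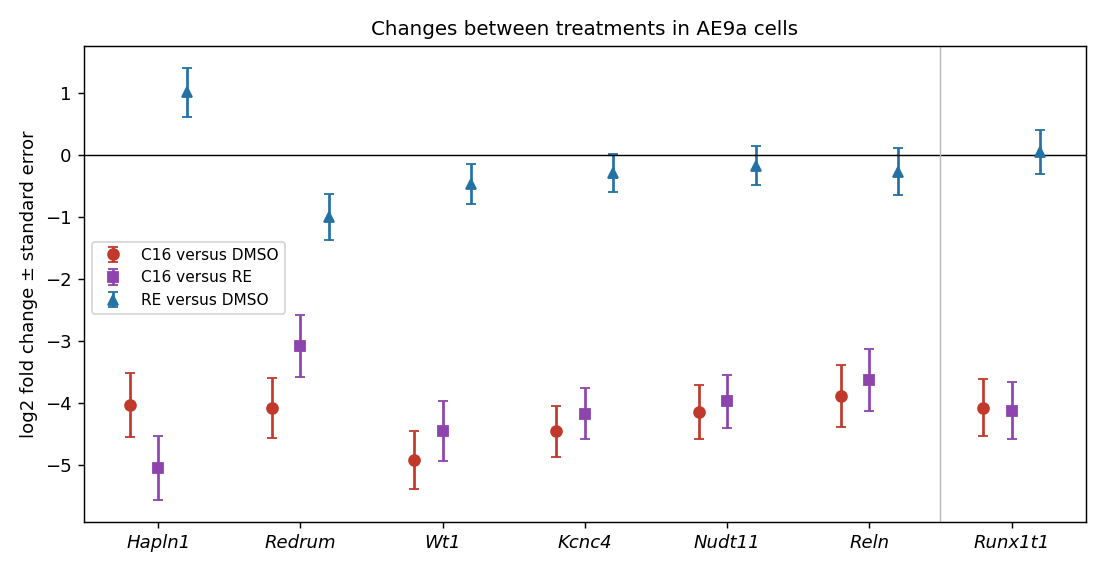
Fitted log2 fold changes with standard errors (edgeR, 3 libraries per group) for the 6 genes and Runx1t1 in AE9a cells, for C16 against DMSO, C16 against RE and RE against DMSO. Both contrasts with C16 lie between -5.04 and -3.08, and RE against DMSO lies between -1.0 and 1.01.

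Under RE the 6 genes stood at 6.94 to 131 CPM in AE9a cells. Hapln1 had 2417, 3232 and 2325 fragments under RE, or 131 ± 7.85 CPM against 66.9 ± 11.8 under DMSO (SD, n = 3 each). Every RE library lay above every DMSO library, with a log2 difference of 1.01 ± 0.40 that missed the threshold (SE, adjusted p = 0.091, edgeR). Redrum had 88, 138 and 192 fragments under RE, or 6.94 ± 2.79 CPM against 14.3 ± 3.39 (SD, n = 3 each). Every RE library lay below every DMSO library, with a log2 difference of -1.0 ± 0.37 (SE, adjusted p = 0.074, edgeR). None of the 6 passed the threshold, where 29.0% of all tested genes did, and 1 of 6 lay wholly above DMSO and 1 wholly below, where 18.9% and 31.3% of all genes did. The AE9a DMSO libraries took part in choosing the 6 genes, so their high DMSO level was given in this contrast too.

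Replicate numbers pair the DMSO and RE libraries in this data, and with the replicate number as a block Redrum passed the threshold (log2 -1.02, adjusted p = 0.049) while Hapln1 did not (1.03, adjusted p = 0.0502). Redrum also passed without AE9a RE replicate 3 (-1.38, adjusted p = 0.0465), its highest RE library. Over all alternatives the adjusted p ran from 0.0465 to 0.359 for Redrum and from 0.0502 to 0.48 for Hapln1. The number of genes called, 4261, was 2351 without AE9a DMSO replicate 1, 2458 without AE9a RE replicate 2 and 2790 without AE9a RE replicate 3.

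The other 4 genes differed by less. Wt1 had 90, 146 and 191 fragments under RE, a log2 difference of -0.47 ± 0.32 (SE, adjusted p = 0.29, edgeR). Kcnc4 had 381, 460 and 263, a difference of -0.29 ± 0.30 (adjusted p = 0.5). Reln had 137, 198 and 290, a difference of -0.27 ± 0.38 (adjusted p = 0.64). For these and for Nudt11 (138, 190 and 189, -0.17 ± 0.31, adjusted p = 0.72) the RE and DMSO libraries overlapped. Runx1t1 stood at 40.2 ± 4.87 CPM under RE and 40.0 ± 6.26 under DMSO (SD, n = 3 each). Of the 13 mast cell and basophil markers none passed the threshold under RE, though their sum ran from 19337.9 to 21827.0 CPM, above every DMSO library. Of the 26 erythroid genes 8 were lower and 1 higher under RE, against 16.8% and 12.2% of all tested genes. Their part in the values of Redrum, an RNA of the red cell lineage, was not tested.

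For 5 of the 6 genes replicate 3 lay at the same end of the group under DMSO and RE. Reln stood at 17.3 CPM in replicate 3 under DMSO and 15.3 under RE, above replicates 1 and 2 of either group (7.52 to 11.3 CPM). Kcnc4 was lowest in replicate 3, at 16.7 and 13.8 CPM, against 19.6 to 28.7 CPM in replicates 1 and 2. Wt1 and Redrum were also highest in replicate 3 of both groups, Wt1 under DMSO only narrowly. Hapln1 was lowest there, at 58.1 and 122 CPM. Nudt11 differed, as its replicate 3 was lowest under DMSO (8.81 CPM) and highest under RE (9.94 CPM).

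C16 and RE were set against each other directly, in libraries that the choice of the genes did not use. The fit and its filter on low counts did include the AE9a DMSO libraries. The 6 genes passed that filter through the groups in which they are high. By edgeR's test, 6 of 6 genes were lower under C16 than under RE, where 37.2% of all tested genes were. For 6 of 6 every C16 library lay below every RE library, as for 38.4% of all genes. Hapln1 differed most, at 3.82 against 131 CPM, or -5.04 ± 0.52 on the log2 scale (SE, adjusted p = 1.6e-05, edgeR). Redrum differed least, at 0.785 against 6.94 CPM, or -3.08 ± 0.50 (adjusted p = 0.00034). Wt1 lay at -4.45 ± 0.48, Kcnc4 at -4.17 ± 0.41, Nudt11 at -3.97 ± 0.43 and Reln at -3.63 ± 0.50 (SE, adjusted p from 1.1e-05 to 0.00012, edgeR). The median was -4.07, against 0.01 over all tested genes. Doses and times are not given in the labels, so these are differences between the 2 treatments as applied.

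Set against Runx1t1 in the same library, the 6 genes did not share 1 course. Hapln1 had 180, 172 and 150 fragments per 100 fragments of Runx1t1 under DMSO and 179 and 175 in C16 replicates 1 and 2, but 384, 323 and 283 under RE. Redrum had 30.4, 33.0 and 43.8 under DMSO and 38.3 and 32.0 under C16, but 14, 13.8 and 23.4 under RE. On this relative scale the C16 values of both genes lay within their DMSO range, and the RE values outside it. Wt1 had 23.3, 23.7 and 28.9 under DMSO, 12.8 and 13.6 under C16, and 14.3, 14.6 and 23.2 under RE, so that both treatments lay below DMSO, RE replicate 3 only narrowly. The C16 ratios of Wt1 rest on only 6 and 14 fragments of this gene. For Kcnc4, Reln and Nudt11 the treatments overlapped. Reln had 29.5, 24.1 and 44.7 under DMSO and 53.2 and 26.2 under C16, where the counts behind the ratio were 25 and 27 fragments. C16 replicate 3, with 4 Runx1t1 fragments, gives no usable ratio. Whether the genes differ in these ratios was not tested.

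**Figure D3:**
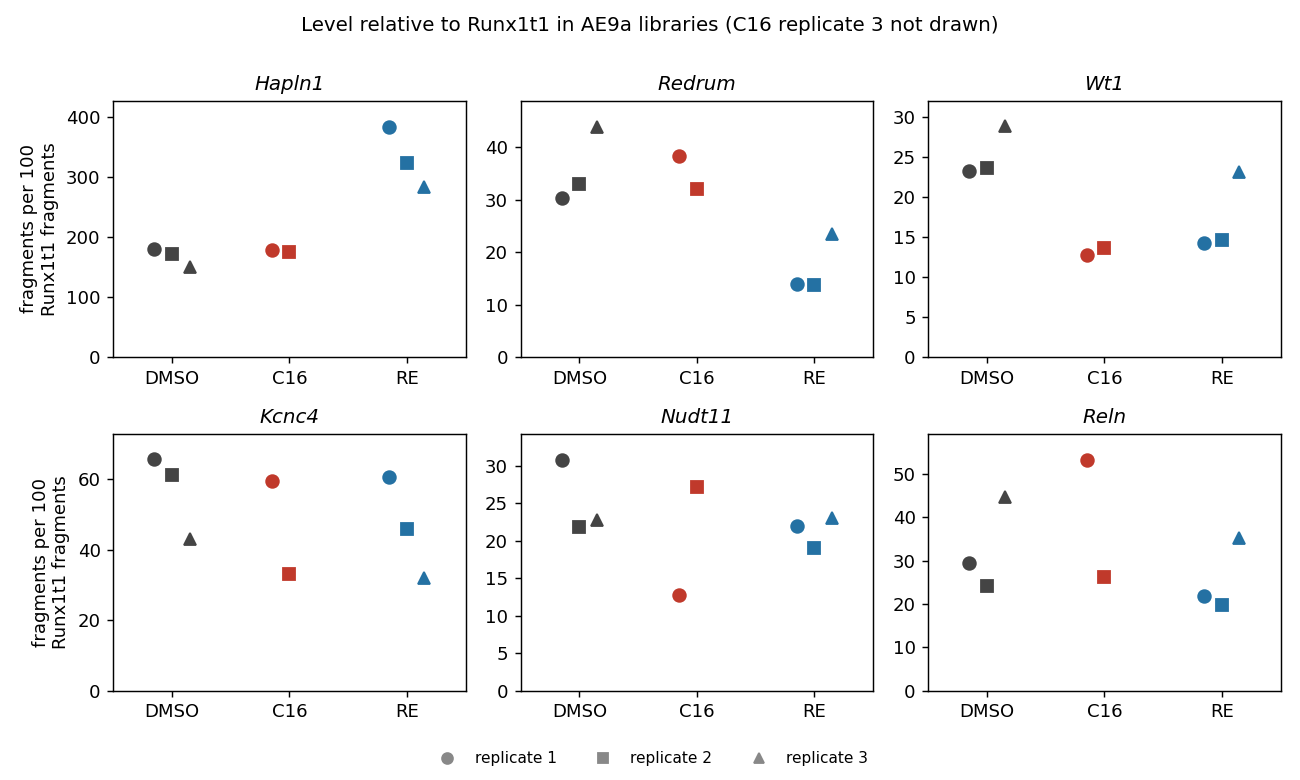
Fragments of each gene per 100 Runx1t1 fragments in the same AE9a library, by treatment, with 1 marker per library and an axis from 0; C16 replicate 3 is left out because it held 4 Runx1t1 fragments. Hapln1 is highest under RE (283 to 384), Redrum lowest there (13.8 to 23.4), and Wt1 lower under C16 (12.8 and 13.6) than under DMSO (23.3 to 28.9). The C16 values of Wt1 rest on 6 and 14 fragments.

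The genotypes were compared again under RE and under C16, in libraries that did not choose the genes. Under RE, all 6 genes lay higher in AE9a cells in every library. Hapln1 stood at 131 ± 7.85 against 0.161 ± 0.134 CPM (SD, n = 3 each), an 846-fold ratio with a 95% exact interval of 429 to 1959.8. This interval and those below cover counting error only, not the spread between libraries. Kcnc4 was at least 312-fold and Redrum at least 118-fold higher, with 0 fragments in WT RE libraries. Reln, Wt1 and Nudt11 each had 1 WT RE fragment, with ratios of 530 (94.8 to 20980.5), 362 (64.7 to 14344.4) and 439 (78.4 to 17360.8). By edgeR over 15809 genes 6 of 6 were higher (adjusted p from 3.7e-06 to 6.3e-05), where 17.8% of all tested genes were higher and 21.1% lay higher in every library. The 6 passed the filter through their AE9a libraries, which this contrast shares in part. Kit differed in the same direction, at 1474.3 ± 124 against 166 ± 73.8 CPM (SD, n = 3 each), and 8 of 13 mast cell and basophil markers were higher and 2 lower, against 17.8% and 18% of all tested genes. Their part in the genotype difference was not tested.

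Under C16 the genotypes lay closer. Hapln1 stood at 3.82 CPM in AE9a and 0.0170 in WT cells, a ratio of 243 (43.3 to 9646.6). The intervals in brackets again cover counting error only, not the spread between libraries. Kcnc4 was at least 20-fold higher, Redrum 24.6-fold (6.49 to 208), Wt1 19.1-fold (3.08 to 791) and Reln 12.5-fold (4.63 to 47.6). Nudt11 differed least, 6.56-fold (2.57 to 21.4), with 6, 28 and 2 fragments in AE9a and 2, 1 and 2 in WT libraries, which overlapped. By edgeR 6 of 6 were higher (adjusted p from 0.0032 for Hapln1 to 0.024 for Nudt11), where 16.1% of all tested genes were, and 5 of 6 lay higher in every library, where 18.3% of all genes did. The 6 genes were tested here because their AE9a DMSO and RE libraries passed the low-count filter, so nothing is read from this count. The calls of Nudt11, Wt1 and Reln were lost without single libraries. The log2 difference of Nudt11, 2.59 with all libraries, was 1.24 without AE9a C16 replicate 2 (adjusted p = 0.2, edgeR), 2.72 without WT C16 replicate 1 (0.0805) and 2.75 without WT C16 replicate 3 (0.0796). That of Wt1, 3.83 with all, was 3.03 without AE9a C16 replicate 2 (0.0693) and 3.40 without WT C16 replicate 3 (0.0768). That of Reln, 3.55 with all, was 3.03 without WT C16 replicate 3 (0.0544). Of all genes, 5540 were called in either direction, against 1550 without WT C16 replicate 3, 1659 without WT C16 replicate 1, 8760 without WT C16 replicate 2, and 3246 to 3340 without any 1 of the AE9a C16 libraries. When only the 6 libraries of the 2 groups were fitted, none of the 6 genes passed the low-count filter. Without the 3 WT libraries numbered 2, all 6 genes kept their calls under RE and under C16.

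The genes next to the 6 on the chromosome changed less under C16 than the 6 genes did. Neighbours here are the nearest genes on either side with a mean of at least 1 CPM in some group. Vcan, which encodes versican, a proteoglycan that link proteins bind, lies 43.5 kb from Hapln1 and stood at 252 CPM under DMSO and 250 under C16 in AE9a cells, a log2 difference of 0.03 (adjusted p = 0.9, edgeR). Under RE it fell by 0.95 (adjusted p = 0.007), where Hapln1 lay 1.01 higher. Neighbours of Reln (Psmc2, Orc5), Kcnc4 (Rbm15), Wt1 (Eif3m, Rcn1) and Redrum (Csnk1g3, Zfp608) changed by between -0.44 and 0.62 under C16. Shroom4, 345.2 kb from Nudt11, fell by 2.55 under C16 (adjusted p = 1.4e-05). Shroom4 was also present in WT DMSO cells, at 11.8 CPM against 30.1 in AE9a DMSO cells.

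**Figure D4:**
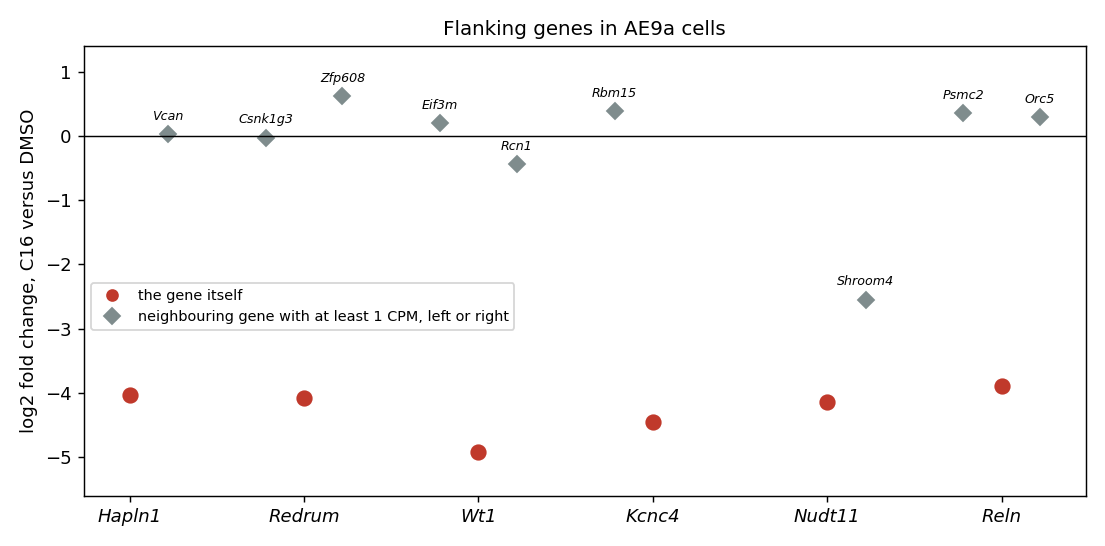
Log2 fold change of C16 against DMSO in AE9a cells for each of the 6 genes (circles) and its neighbours described in the text that were tested (diamonds). The 6 genes lie between -4.92 and -3.89, and the neighbours drawn other than Shroom4 (-2.55) between -0.44 and 0.62.

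Wt1os, an antisense gene that starts 19 bases from Wt1 without overlapping it, was seen with Wt1. It had 5, 13 and 23 fragments in AE9a DMSO cells, 1 in all under C16, 9, 9 and 7 under RE, and 0 in all 9 WT libraries. As counting ignored strand, fragments of the 2 genes near their starts cannot be told apart. Reln shares 299 exon bases with Gm10475, which had 0 fragments in every library. Gm26618 overlaps the span of Nudt11 but none of its exons, and had at most 9 fragments in a library.

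Of the close relatives of the 6 genes described here, those other than Hapln4 were at 0, low, or at like levels in both genotypes. Of the other Kcnc channels, Kcnc2 had 0 fragments in all libraries. Nudt3 and Nudt4, which act on the same inositol pyrophosphates as Nudt11, stood at 132 and 53.8 CPM in AE9a and 130 and 58.8 CPM in WT DMSO cells. Nudt10, whose sequence is close to that of Nudt11 so that fragments could be split between them, had at most 2 fragments in an AE9a DMSO library. Its highest level was in WT RE cells, at a group mean of 0.324 CPM. It had 17 fragments there in all and up to 10 in a library, where Nudt11 had 1 in all. Hapln4, a link protein gene of the brain, fell under C16 as Hapln1 did. It stood at 1.74 CPM in AE9a DMSO, 0.185 in AE9a C16 and 2.85 in AE9a RE cells, with a log2 change under C16 of -3.09 ± 0.52 (SE, adjusted p = 0.00058, edgeR). Under RE it was 3.26 ± 0.48 higher in AE9a than in WT cells (adjusted p = 0.00012).

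Of the receptors of reelin, Lrp8 was abundant in both genotypes, at 169 ± 3.56 CPM in AE9a and 152 ± 2.13 in WT DMSO cells (SD, n = 3 each). Vldlr was lower in AE9a cells, at 4.42 against 38.9 CPM under RE, a log2 difference of -3.06 ± 0.68 (SE, adjusted p = 0.0031, edgeR). Of the 13 genes of reelin signalling, 11 were tested under C16 in AE9a cells, and 1 rose and 4 fell. Fyn, the kinase that reelin receptors engage, fell by 1.48 on the log2 scale, from 74.4 to 26.0 CPM (adjusted p = 4.1e-06). Over all tested genes 33.1% rose and 33.2% fell under C16. Under RE 2 of 11 rose and 0 fell, against 12.2% and 16.8% of all genes. The list medians were -0.09 and 0.03.

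The voltage-gated potassium channel list had 10 of 33 genes tested in AE9a cells, of which 3 rose and 5 fell under C16, and 3 rose and 1 fell under RE. All tested genes rose in 33.1% and fell in 33.2% of cases under C16, and in 12.2% and 16.8% under RE. Kcnq1 and its partner subunit Kcne3 fell under C16, with log2 changes of -2.77 and -3.22, and rose under RE, by 1.85 ± 0.33 and 1.72 ± 0.25 (SE, adjusted p = 0.0041 and 0.0018, edgeR). Kcne3 stood at 26.9, 2.74 and 85.7 CPM under DMSO, C16 and RE. Kcnq5 went the other way, from 7.91 CPM under DMSO to 17.3 under C16 and 5.13 under RE.

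Of 21 hyaluronan and link protein genes, 13 were tested in AE9a cells, 2 rose and 4 fell under C16, and 1 rose and 4 fell under RE. Hmmr, a hyaluronan receptor, rose by 0.95 under C16 and fell by 0.51 under RE on the log2 scale. Of 12 genes of inositol pyrophosphate metabolism, 10 were tested, 6 rose and 3 fell under C16, and 2 rose and 2 fell under RE. Ip6k1, a kinase that makes these molecules, fell by 0.56 under C16. Of 17 partners and reported targets of WT1, 12 were tested, 4 rose and 3 fell under C16, and 1 rose and 1 fell under RE. Podxl, a surface sialomucin, fell by 1.78 under C16, from 85.4 to 24.2 CPM (adjusted p = 0.0003, edgeR). The medians of these 3 lists under C16 were -0.04, 0.15 and -0.15, against 0.00 over all tested genes, of which 33.1% rose and 33.2% fell under C16 and 12.2% rose and 16.8% fell under RE. Of the erythroid list, with a median of -3.42, Hbb-bs (a beta globin gene) fell by 5.25, from 337 to 8.52 CPM, and Car2 (carbonic anhydrase) by 3.16, from 342 to 37.3 CPM.

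The genes whose levels were most like each of the 6 were taken as those with the highest Pearson r of log2(CPM + 1) over the 9 AE9a libraries, among 14443 genes. They were Hrh4, Fhdc1 and Creb3l1 for Hapln1 (r = 0.999 each), Acss2, Gm39792 and Gm15915 for Reln (0.991 to 0.994), and Rhoh, Mesp2 and Prkd1 for Kcnc4 (0.995 to 0.996). For Nudt11 they included Slc22a23 and Crip2 (0.996 and 0.995), for Wt1 Wfikkn2, Mkx and Pbx3 (0.994 to 0.999), and for Redrum they included Ell2 and Ptp4a3 (0.994 and 0.992). Among themselves the 6 genes ranged from 0.862 (Hapln1 and Redrum) to 0.987 (Reln and Wt1). For each of the 6 genes the 3 C16 libraries lay below the other 6, and r without them was not computed. The values of a gene pair come from the same libraries.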

How the data were processed

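RNA was counted in 18 libraries of c-kit+ mouse bone marrow cells. The deposited values are raw counts of fragments per gene, 2 tables of 41079 genes on GRCm39. The submitters' processing notes list fastp 0.23.2, HISAT2 2.1.0, featureCounts 2.0.3 and DESeq2 without their order, and per the file headers featureCounts 1.6.2 counted primary alignments of read pairs over exons without strand. The sources thus name 2 versions of featureCounts. Totals ran from 16053727 to 27207748 fragments.

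The 6 genes, gene lists and tests were chosen with earlier results of these data known. CPM used library totals. Genes kept by filterByExpr (14704 in the 9 AE9a libraries, 15809 in all 18) were scaled by TMM and tested with edgeR 4.0.16 (R 4.3.3) (quasi-likelihood F test, Benjamini-Hochberg, threshold 0.05). Treatments were compared within the AE9a libraries and genotypes within all 18. The genotype difference under DMSO chose the genes and was not tested, and WT treatment effects were described by counts. Folds against 0 fragments use 3 fragments over the group as the floor. Ratio intervals are exact at 95% on fragments summed over a group, and cover counting error only. Alternatives were RLE scaling, no low-count filter, DESeq2 1.42.0, the replicate number as a block, fits of other libraries, and each library left out in turn. Scripts were tested on simulated data. Genes named from lists are up to 4 per list and comparison past the threshold. Same-number correlations of deviations from group means were 0.337, 0.251 and 0.31 between AE9a DMSO and RE, which pairs them by the data, not by the labels. They were 0.061, 0.254 and 0.142 for DMSO and C16, and 0.115, 0.115 and 0.097 for C16 and RE. Some neighbouring, related and most-alike genes are not reported here.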

Additional observations from a re-analysis of the deposited data

How the results depend on the processing

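The fall of the 6 genes under C16, against DMSO and against RE, and their higher level in AE9a than in WT cells under RE kept direction and call in all 66, 66 and 72 values under the alternatives. The choice of the genes gave their high level in AE9a DMSO cells. They also passed the low-count filter through the groups in which they are high, so nothing further is read from these counts. Under C16, 6 of 72 values for the genotypes missed the threshold, all on leaving out 1 library, and 2 of 66 for RE against DMSO newly passed it, both for Redrum. The 72 values under C16 leave out the fit of only the 6 libraries of the 2 groups, in which none of the 6 genes could be tested. Of the 6 genes, those called for RE against DMSO went from 0 to 1 with the replicate block, and ranged from 0 to 1 without single libraries. For the genotypes under C16 they ranged from 3 to 6 in the fits that tested them. Genes called for RE against DMSO, 4261, were 500 in a fit of all 18 libraries and from 2351 to 3852 without single libraries. For the genotypes under RE, 5664 became 8801 without the 3 WT libraries numbered 2, and under C16 5540 became 10525 without those 3 and 1 when only the 6 libraries of the 2 groups were fitted, and ranged from 1550 to 8760 without single libraries. The cause was not tested. With the replicate block the counts of genes called were 9933 for C16 against DMSO, 4584 for RE against DMSO, 11146 for C16 against RE, and 5977 and 6363 for the genotypes under RE and C16, and no call of the 6 genes changed but that of Redrum. Same-numbered AE9a and WT libraries correlated at -0.039, 0.067 and 0.099 under RE and 0.13, -0.257 and -0.224 under C16. Leaving out both AE9a C16 replicate 3 and WT C16 replicate 2, chosen after seeing the data, gave 7948 genes. Under C16, 5 of the 6 genes had at most 34 fragments in an AE9a library, which limits what differences can be seen there.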
